A study of Mus musculus with 20 samples.

Results

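GABA and glutamate act on nerve cells through receptors that are assembled from many related subunits, and the choice of subunits sets how a receptor opens, desensitizes and is modulated. GABA-A receptors are chloride channels built from 5 subunits of the alpha, beta, gamma, delta, epsilon, pi, theta or rho kind, and GABA-B receptors are pairs of G protein-coupled proteins. Glutamate opens AMPA, kainate and NMDA receptor channels and activates metabotropic receptors, while the delta proteins resemble channel subunits by sequence. Dorsal root ganglion (DRG) neurons release glutamate in the spinal cord and carry GABA and glutamate receptors on their own membrane, where GABA-A receptors take part in presynaptic inhibition.

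The members described here are the subunits of these receptors on a mouse Agilent array. They were chosen by gene name: every non-control probe whose name began as those of GABA-A, GABA-B, AMPA, kainate, delta, NMDA or metabotropic glutamate receptor genes do. The rule found 48 of the 30222 gene names on the array, with 77 of its 39429 probes on 86 of its 43020 spots. One of the names belongs to an interacting protein that is no subunit. It is kept apart, which leaves 47 subunits on 76 probes. All 47 names match a current RefSeq gene symbol. Among them are 16 GABA-A subunits of the alpha to theta kinds, 3 rho subunits, 2 GABA-B, 4 AMPA, 5 kainate, 2 delta, 7 NMDA and 8 metabotropic receptor genes.

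The neurons came from NIH Swiss mouse embryos of day 13.5 and grew in chambers that let axons pass under a barrier, across which action potentials were evoked by electrodes. The growth protocol names spinal cords as the dissected tissue, while the sample labels name DRG neurons. All cultures, unstimulated ones included, had been treated with fluorodeoxyuridine against dividing cells, and RNA of several cultures was pooled. The 5 conditions were unstimulated neurons, 18 action potentials every 1 min (18/1) for 2 hr or 5 hr, and bursts of 90 at intervals of 5 min (90/5), again for either time, evoked by 6 V pulses of 0.2 ms. Each condition had 4 samples, as the Cy3 and Cy5 colours of 2 arrays. Arrays 1 to 4 (unstimulated and 18/1 2 hr) lay on slide 1, arrays 5 to 8 (18/1 5 hr and 90/5 2 hr) on slide 2 and arrays 9 and 10 (90/5 5 hr) on slide 3. A comparison within a slide could therefore be made for 18/1 2 hr against unstimulated and for 90/5 2 hr against 18/1 5 hr, and in all other comparisons slide and condition cannot be told apart. By the study's methods the RNAs paired on an array were biological replicas, though the labels do not tell which cultures went into each sample.

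The arrays of slide 2 stood apart. The ratio of spot to background brightness, taken as the median per sample, lay between 2.27 and 2.94 on slide 1, 3.64 and 10.4 on slide 2, and 2.66 and 4.91 on slide 3. Of the 86 member spots, 10 to 27 per sample were marked non-uniform at 18/1 5 hr and 0 to 18 at 90/5 2 hr, and 0 in every sample of the other 3 conditions. No member spot was saturated in any sample. Of 23 markers of sensory neurons, 23 were well above background (the scanner software's mark for a spot brighter than its surroundings) in all 4 unstimulated samples and 21 at 18/1 5 hr. The summed signal of the 19 of them that could be tested ranged from 674755 to 716770 units in unstimulated samples and from 535064 to 792866 at 18/1 5 hr. The summed signal of 4 of 7 fibroblast markers was 17023 to 44084 in unstimulated samples and 66303 to 75955 at 18/1 5 hr. It was 27716 to 54746 at 18/1 2 hr, 20860 to 80594 at 90/5 2 hr and 20933 to 44217 at 90/5 5 hr. For 2 of 14 markers of Schwann or satellite glia it was 66821 to 73499 in unstimulated samples and 30595 to 82891 at 18/1 5 hr. Erbb3 was not well above background in any sample. Of 14 markers of spinal cord neurons, 6 were well above background in all 4 unstimulated samples, and 1 could be tested. This was Lbx1, whose signal of 243 to 268 units in unstimulated samples was 96.9 to 102 at 18/1 5 hr, where it was well above background in 0 of 4 samples, and 257 to 307 at 90/5 5 hr. Of the 19 sensory neuron markers tested, 1 was called higher and 3 lower at 18/1 5 hr, with Ntrk3 at -1.96 and Ntrk2, well above background in 2 of 4 samples there, at -1.75, and 0 at 90/5 2 hr or 90/5 5 hr. The tested endothelial marker, Pecam1, was called lower at 18/1 5 hr (adjusted p = 0.000908 by limma), where it was well above background in 1 of 4 samples, and of the 4 fibroblast markers Col1a1 was called, 1.79 higher (adjusted p = 0.00801 by limma). In bulk samples fewer cells of a type and less RNA per cell cannot be told apart, and the part of these markers in the results below was not tested.

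Several probes carry the results and are shown here by sequence. Probes are 60 bases long, and their positions are those of the array annotation on mm9. The probe of Gabrr2, the rho2 subunit, lies at chr4:33182776-33182835 on the plus strand and has 40.0% G and C bases. Its bases 16 to 45, the middle of the probe, read as follows.
Gabrr2 A_55_P1987494: tcacaagaatcccccctttccccacctact
The alpha2 subunit Gabra2 has a pair of probes on the minus strand, at chr5:71352275-71352334 and chr5:71352306-71352365. They overlap by 29 bases, and the capitals mark these shared bases, which are the first 29 of A_55_P2027900 and run from base 32 to the end of A_55_P2177351.
Gabra2 shared bases: TCAGCTCACTTCAATCATTGGAAACTACC
The GABA-B subunit Gabbr1 has 3 probes on the plus strand of chromosome 17, which start at bases 37206959, 37209174 and 37210986. Their middle bases are shown because these probes differed in their measurements.
Gabbr1 A_55_P2082135: ccccagctggagcactgcagctccaagaag
Gabbr1 A_51_P464900: tgttggagaaggaaaaccgtgaattggaaa
Gabbr1 A_52_P16232: aaactactgcatcttggttttcttttcttt
The 3 Gabbr1 probes hold 53.3%, 48.3% and 28.3% G and C bases, in the order shown. Both Gabra2 probes hold 35.0%.

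Which subunits gave a signal was asked first. In unstimulated neurons, 35 of the 47 subunits had a probe well above background in all 4 samples, 6 in 1 to 3 samples and 6 in none. The 6 that were not well above background in any unstimulated sample were Gabra4, Gabra6, Gabrq, Grin2c, Grm3 and Grm6. Gabra6 is known from cerebellar granule cells and Grm6 from retinal bipolar cells. Of the 47, 18 were well above background in all 20 samples, among them the GABA-B subunits Gabbr1 and Gabbr2, the GABA-A subunits Gabra2 and Gabra5, the rho subunit Gabrr3, the AMPA subunits Gria3 and Gria4, the kainate subunits Grik1, Grik4 and Grik5, the NMDA subunits Grin1 and Grin3a, and the metabotropic receptors Grm2, Grm5, Grm7 and Grm8. No subunit was below background in every sample.

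The number of subunits well above background in all 4 samples was 35 in unstimulated neurons. With 18/1 it was 31 after 2 hr and 30 after 5 hr, and with 90/5 it was 20 after 2 hr and 36 after 5 hr. Over all spots of the array the number well above background was also lower at 90/5 2 hr, with 22124 to 24498 per sample against 28376 to 29807 in unstimulated samples. Gabrb1, Gabre, Gria1, Grik2, Grin3b and Grm4 were among the 13 subunits that no sample of 90/5 2 hr showed well above background. Gabra6 and Grin2c were well above background in 4 of 4 samples of 18/1 5 hr and in 0 of 16 others. Their spots there were marked non-uniform in 4 of 4 samples for Gabra6 and in 3 of 4 for Grin2c.

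**Figure D1:**
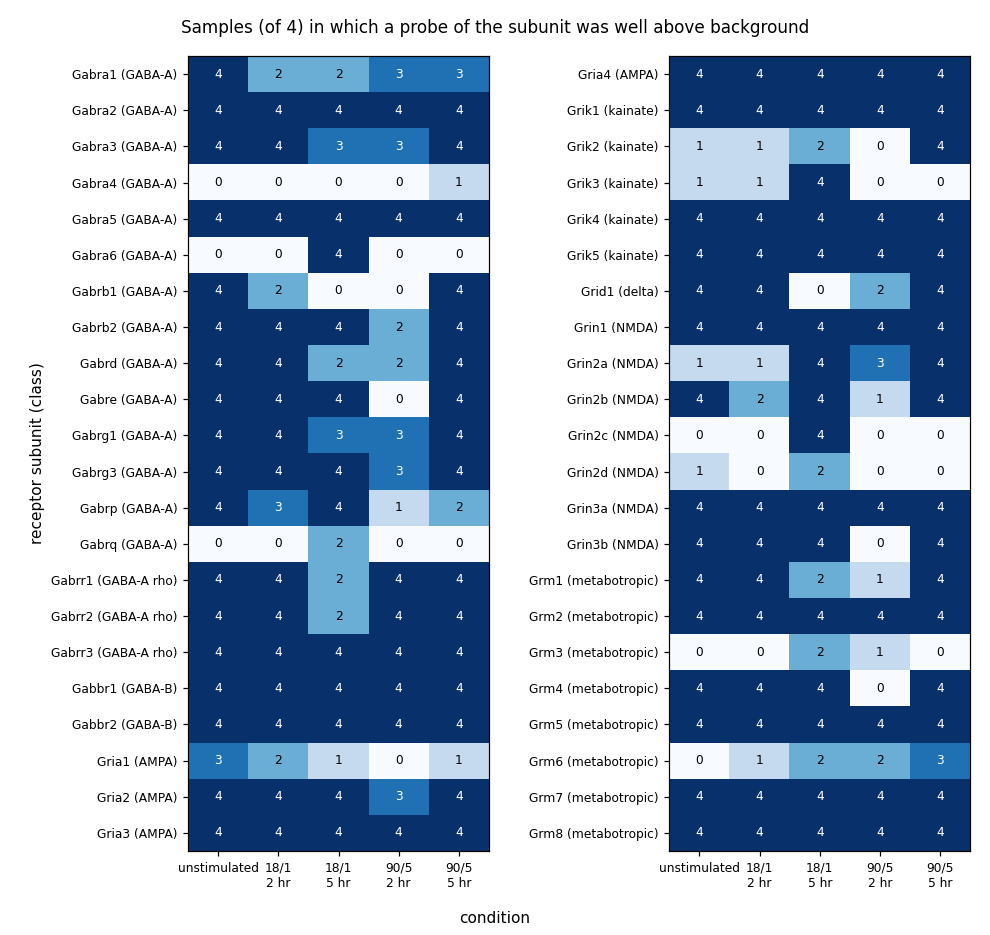
Number of samples, of 4, in which any probe of a subunit was well above background, for 44 of the 47 subunits (rows, with their class) and 5 conditions (columns); darker cells mean more samples. Over all 47 subunits, 20 stood at 4 of 4 at 90/5 2 hr, against 35 in unstimulated neurons.

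A gene was tested where a spot of it was uniform and reached 2 times its background in every one of the 20 samples. This left 10355 genes and 16 of the 47 subunits. They include the GABA-A subunits Gabra2, Gabra3 and Gabrg1, and Gabrr2, Gabbr1, Gria3, Gria4, Grik1, Grik4, Grik5, Grin1, Grin3a, Grm5 and Grm8. A further 21 met the same limits in all 4 samples of at least 1 condition, and 10 (among them Gabra4, Gabra6, Gabrp, Gria1, Grik3, Grin2c, Grin2d, Grm3 and Grm6) did not. Values below are normalized log2 intensities, in which 1 unit is a doubling. They can be compared between samples for a probe but not between probes. Differences come from a limma fit over all genes, with p-values adjusted by Benjamini-Hochberg over the 10355 genes and called below 0.05.

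After 18/1 for 2 hr no subunit was called by limma. On slide 1, where this comparison was made, 0 of 16 subunits were called, against 2 of 10355 genes (0.0193%), and 0 of 16 had an unadjusted p under 0.05. The methods' t-test likewise called 0 subunits, with or without adjustment. The member with the smallest p was Grin1, the subunit that every NMDA receptor contains. Its level was 10.94 and 11.12 on array 1, 10.73 and 10.78 on array 2, 10.22 and 10.62 on array 3 and 10.60 and 10.22 on array 4, in the order Cy3 and Cy5, which is kept below. The groups did not overlap, but the difference of -0.48 ± 0.34 (SE, n = 4 per group) had an adjusted p of 1.00 by limma. Same-numbered samples of these conditions deviated together. Between samples of the same number Grin1 differed by -0.72, -0.51, -0.13 and -0.57, lower in 4 of 4 pairs. With the replicate number as a block 0 subunits were called, as were 7 genes (0.0676%) in a fit with the 90/5 5 hr samples and 207 genes (2%) in one on both conditions alone, where Grin1 had an adjusted p of 0.323 and 0.0553 by limma. Across the 16 subunits the median difference was -0.07, beside -0.00428 over all genes.

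After 5 hr of 18/1 stimulation 8 of 16 subunits were called, 1 higher and 7 lower, where 4599 of 10355 genes (44.4%) were called, 1549 (15%) higher and 3050 (29.5%) lower. The share of called subunits is near that background. The median difference of the 16 from unstimulated was -0.81, beside -0.23 over all genes. When arrays were only centred on their medians, without loess or Aquantile, the medians were -1.19 for the subunits and -0.81 for all genes, and 0 subunits were called higher and 10 lower. Called lower were the rho subunit Gabrr2, the alpha subunit Gabra3, Gabbr1, the kainate subunit Grik5, the NMDA subunits Grin1 and Grin3a, and Grm8. Called higher was Gabra2. The 2 arrays of this condition differed from each other by 0.82 in the median subunit, against 0.12 for the 2 unstimulated arrays, and 6 of 16 subunits differed by over 1. Without unstimulated array 1 or without unstimulated array 2 the count was 3, and without unstimulated replicate 1 it was 5. The share of all genes called with median centring or in these reduced fits is not set beside these counts. They are not read as results about the subunits.

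**Figure D2:**
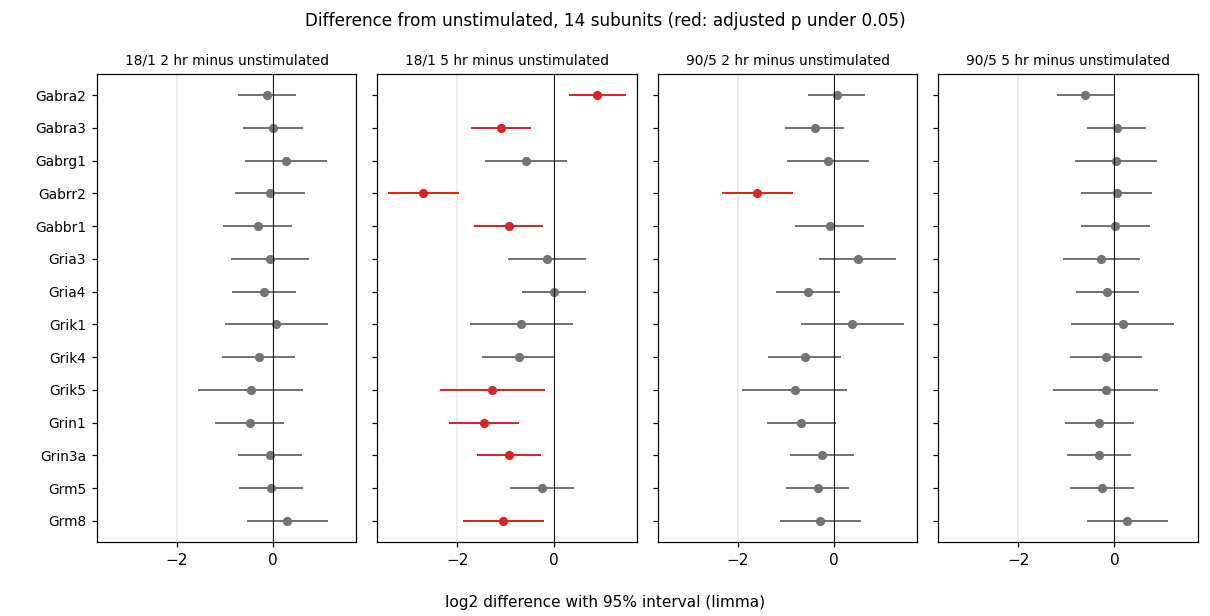
Log2 difference from unstimulated neurons (points) with its 95% interval from limma (lines) for 14 of the 16 tested subunits in the 4 stimulated conditions; red marks an adjusted p under 0.05. Red points number 0, 8, 1 and 0 from left to right.

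Among GABA-A receptors, Gabrr2 had the largest difference among the subunits tested. Subunits of the rho kind form channels of their own that are best known from the retina. In unstimulated samples Gabrr2 stood at 9.95, 10.23, 9.87 and 10.16, and at 18/1 2 hr at 10.15, 10.12, 9.66 and 10.05. At 18/1 5 hr it was 7.02 and 6.59 on array 5 and 7.97 and 7.81 on array 6. Both arrays lay below every unstimulated sample, and 2 of these 4 samples were well above background.

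At 90/5 2 hr Gabrr2 was 9.12 and 8.95 on array 7 and 8.04 and 7.72 on array 8, again below every unstimulated sample, and at 90/5 5 hr it was 10.25, 10.09, 10.12 and 9.93, within the unstimulated range but for its highest sample. The difference from unstimulated was -2.71 ± 0.34 (SE, n = 4 per group; adjusted p = 8.15e-06 by limma) at 18/1 5 hr, a 6.54-fold lower level. It was -1.60 ± 0.34 (adjusted p = 0.00685 by limma) at 90/5 2 hr, 3.03-fold lower. At 90/5 5 hr it was 0.04 ± 0.34 (adjusted p = 1.00 by limma), with a 95% interval of -0.67 to 0.76.

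The fall at 18/1 5 hr was called whichever array or sample was left out, with differences from -3.25 to -2.17. The call at 90/5 2 hr was kept without array 7 (-2.17, adjusted p = 0.000238 by limma) and lost without array 8, 1 or 2. The difference was -1.02 (adjusted p = 0.173 by limma) without array 8, and the adjusted p was 0.115 without array 1 and 0.0978 without array 2. Both conditions in which Gabrr2 was low were on slide 2, so its level cannot be told apart from the slide.

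The other rho subunits did not meet the limits in all 20 samples and are given from the fit with the filter met in 1 condition. In that fit the share of called genes at 18/1 5 hr was 36.8% of 18744. Gabrr1 was 8.38 to 8.69 in unstimulated samples, 6.86 and 6.73 on array 5 and 7.59 and 7.64 on array 6, and 2 of these 4 samples were well above background. The difference at 18/1 5 hr was -1.32 ± 0.25 (adjusted p = 0.000595 by limma), and at 90/5 2 hr the difference was -0.42 ± 0.25 (adjusted p = 0.351 by limma). Gabrr1 and Gabrr2 lie on chromosome 4, with probes that start at 33250489 and 33182776. Gabrr3 had 7.50, 7.76, 7.35 and 7.43 at 18/1 5 hr, and 7.25, 7.21, 7.11 and 7.35 in unstimulated samples.

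Gabra2 encodes the alpha2 subunit, a main alpha subunit of DRG neurons. By its brighter probe it was 9.88, 10.08, 10.12 and 10.57 in unstimulated samples and 10.99, 10.59, 11.38 and 11.33 at 18/1 5 hr. The groups did not overlap, though the lowest stimulated sample stood only just above the highest unstimulated one. The difference was 0.91 ± 0.28 (SE, n = 4 per group; adjusted p = 0.0114 by limma), 1.88-fold. After median centring alone it was 0.11 (adjusted p = 0.816 by limma), without array 6 it was 0.63 (adjusted p = 0.0710 by limma), and without array 1 0.73 (adjusted p = 0.151 by limma).

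The second Gabra2 probe, which shares the 29 bases shown above, gave other values. It was 9.46, 9.33, 9.68 and 9.91 in unstimulated samples, and 9.0, 8.93, 9.80 and 9.76 at 18/1 5 hr. Its difference was -0.22 ± 0.35 (adjusted p = 0.639 by limma over every probe that met the filter in 1 condition, where the first probe had 0.91 ± 0.30 and an adjusted p of 0.0214). At 90/5 2 hr the first probe was 10.11, 10.36, 10.22 and 10.17 while the second was 9.30, 9.19, 8.73 and 8.19, below every unstimulated sample (adjusted p = 0.247 by limma). The signs were thus opposite at 18/1 5 hr, where only the first probe was called. At 90/5 2 hr the first probe differed by 0.05 ± 0.28 and the second by -0.74, and neither was called. The probes share G and C content. The first probe is annotated to the transcript AK046953 and the second to NM_008066.

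**Figure D3:**
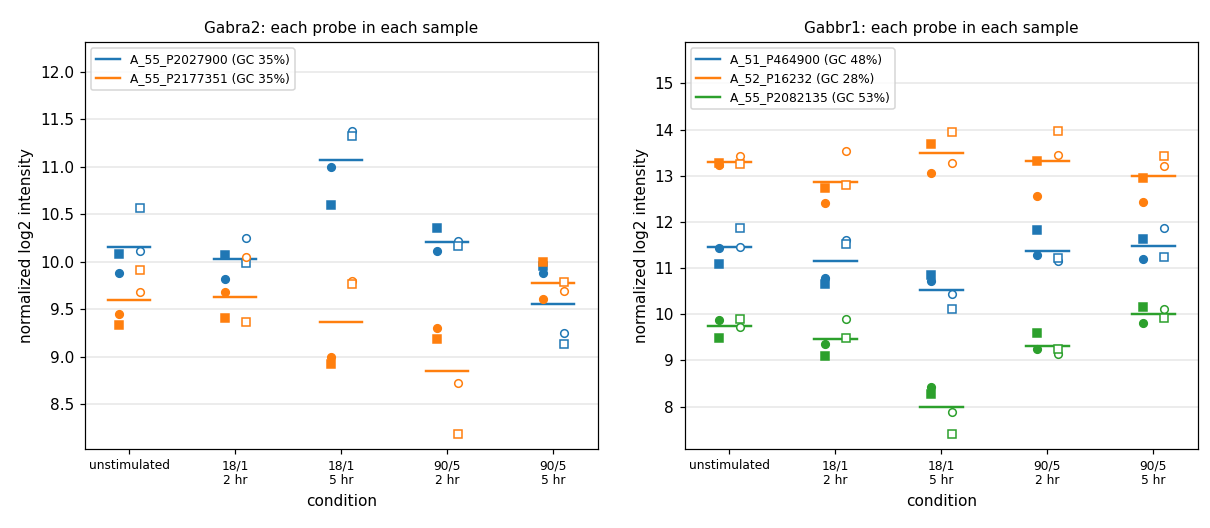
Normalized log2 intensity of both Gabra2 probes (left) and the 3 Gabbr1 probes (right) in each sample, by condition; circles are Cy3 and squares Cy5, filled symbols the lower-numbered array and open ones the other, and lines are means of 4 samples. At 18/1 5 hr one Gabra2 probe lies above its unstimulated samples and the other overlaps them, and the Gabbr1 probes of 53.3% and 48.3% GC lie below theirs while that of 28.3% overlaps them.

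Gabra3, the alpha3 subunit, was 8.34, 7.87, 8.63 and 7.95 in unstimulated samples and 7.16, 6.75, 7.39 and 7.11 at 18/1 5 hr. Within each array Cy3 read higher than Cy5 in both conditions, and the groups did not overlap. The difference was -1.09 ± 0.29 (adjusted p = 0.00420 by limma), 2.13-fold lower. At 90/5 2 hr it was 8.45 and 8.29 on array 7 but 7.47 and 6.99 on array 8, and at 90/5 5 hr 8.23, 7.93, 8.78 and 8.02.

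Of the gamma subunits, Gabrg1 was not called against unstimulated in any condition. It ranged from 8.29 to 8.49 in unstimulated samples and from 6.80 to 8.48 at 18/1 5 hr. At 90/5 5 hr its lowest sample was array 10 Cy3, with 7.62.

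Of the GABA-A subunits outside the filter, Gabra5 gave 8.41 to 9.06 in unstimulated samples, 7.38 and 7.31 on array 5 and 8.80 and 8.91 on array 6. Gabrg3 gave 9.67 and 10.10 on array 5 and 7.80 and 8.09 on array 6, against 7.08 to 7.22 in unstimulated samples. Another of its probes gave 6.85 and 6.84 on array 5 and 7.79 and 8.06 on array 6, against 7.20 to 7.35. The arrays of 18/1 5 hr thus disagreed in opposite directions for these Gabrg3 probes, whose spots were marked non-uniform there in 3 and 2 of 4 samples, while the colours within an array lay close together. Gabrb1 was 7.10 to 7.42 in unstimulated samples, 7.09 and 7.20 on array 9, and 9.11 and 9.10 on array 10. Its high level at 90/5 5 hr, the only condition through which it passed the filter, was thus a feature of 1 array.

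Gabbr1 is the subunit of the GABA-B receptor that binds the ligand. Its tested probe was 11.44, 11.09, 11.45 and 11.88 in unstimulated samples and 10.71, 10.84, 10.44 and 10.12 at 18/1 5 hr, without overlap. The difference was -0.93 ± 0.33 (adjusted p = 0.0279 by limma). The 3 probes differed. With every probe that met the filter in 1 condition, A_55_P2082135 had -1.74 ± 0.31 (adjusted p = 0.000426 by limma), A_51_P464900 -0.93 ± 0.37 (adjusted p = 0.0562 by limma) and A_52_P16232 0.20 ± 0.42 (adjusted p = 0.733 by limma). The last had 13.23, 13.28, 13.44 and 13.24 in unstimulated samples, and did not pass the main filter because it was marked non-uniform in 2 samples. The order of the 3 differences is that of the probes' G and C content. For Gabbr2, the subunit that couples the receptor to G proteins, probes of 35.0%, 36.7% and 38.3% G and C bases gave -1.01, 0.08 and -0.11, so that the probe with the fewest lay lowest. That probe, A_52_P111145, was called in the same fit (adjusted p = 0.00477 by limma) and was well above background in 1 of 4 samples of 18/1 5 hr.

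Glutamate receptor channels were described next. By their tested probes the AMPA subunits Gria3 and Gria4 were called in no comparison. Gria4 was 10.40 to 10.78 in unstimulated samples and 10.18 to 10.83 at 18/1 5 hr, a difference of 0.00359 ± 0.31 with a 95% interval of -0.64 to 0.65. Gria3 had -0.14 ± 0.38 at 18/1 5 hr and 0.49 ± 0.38 at 90/5 2 hr. Its other probe, A_52_P179309, was 7.46, 7.81, 7.55 and 7.84 in unstimulated samples and 6.92, 6.53, 7.01 and 6.85 at 18/1 5 hr. The groups of that probe did not overlap, and it was well above background in 2 of 4 samples of 18/1 5 hr. It was called with every probe tested that met the filter in 1 condition, with -0.84 ± 0.32 (adjusted p = 0.0451 by limma), so that the calls of both Gria3 probes disagreed. Gria2, whose subunit keeps AMPA receptors from passing calcium, did not meet the limits in all 20 samples and was 7.17 and 6.57 on array 5 and 8.65 and 8.37 on array 6, against 7.23 to 7.78 in unstimulated samples.

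The kainate subunits Grik1, Grik4 and Grik5 were tested. GluK1, the product of Grik1, is the main kainate receptor subunit of DRG neurons, and Grik4 and Grik5 encode subunits that need such a partner. Grik5 ranged from 11.92 to 12.23 in unstimulated samples and was 11.04, 11.31, 10.45 and 10.28 at 18/1 5 hr. It lay lower in all 4, with a difference of -1.28 ± 0.52 (adjusted p = 0.0487 by limma). Grik4 ranged from 11.92 to 12.33 and from 11.18 to 11.57, also without overlap, with a difference of -0.72 ± 0.35 (adjusted p = 0.101 by limma).

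Grik1 was 9.59, 9.90, 9.84 and 9.25 in unstimulated samples. At 18/1 5 hr it was 7.90 and 7.64 on array 5 and 10.46 and 9.89 on array 6, so that array 5 lay below every unstimulated sample while array 6 lay at or above the upper end of their range. The difference was -0.67 ± 0.51 (adjusted p = 0.294 by limma). Array 10 Cy3 gave the highest values of Grik4 and Grik5 in any sample, 12.81 and 13.34. Grik2, outside the filter, was 6.89 and 6.98 on array 9 and 9.27 and 9.16 on array 10, against 6.82 to 7.02 in unstimulated samples.

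Of the delta genes, Grid1 was 7.87, 7.89, 7.73 and 7.58 in unstimulated samples and 6.35, 6.50, 6.42 and 6.41 at 18/1 5 hr. None of the latter was well above background. The level in unstimulated neurons was at least 2.13-fold higher, as the mean of the bright condition against the larger of the dim signal and the lowest signal well above background in each sample (measured means 7.76 and 6.42, adjusted p = 0.000877 by limma with the filter met in 1 condition). At 90/5 5 hr Grid1 was 7.46 to 7.78.

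Among NMDA receptor genes, Grin1 was lower at 18/1 5 hr on both arrays, with 9.99 and 10 on array 5 and 8.95 and 8.86 on array 6. All 4 lay below the unstimulated and the 18/1 2 hr samples. The difference from unstimulated was -1.45 ± 0.34 (adjusted p = 0.00179 by limma), 2.73-fold lower. It was called whichever array or sample was left out, with differences from -1.99 to -0.90 and adjusted p-values of up to 0.0394 by limma, and the smallest difference was that without array 6. With each sample's trend on the probes' G and C content removed it was -0.48 (adjusted p = 0.236 by limma).

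Grin3a, which lowers calcium flow through NMDA receptors, was 8.92, 8.62, 8.70 and 8.73 in unstimulated samples, 7.32 and 7.22 on array 5 and 8.33 and 8.38 on array 6. The difference was -0.93 ± 0.31 (adjusted p = 0.0190 by limma). Another Grin3a probe, A_55_P1980471, ranged from 7.33 to 7.69 in unstimulated samples. At 18/1 5 hr it was 6.70 and 6.58 on array 5 and 7.40 and 7.49 on array 6, which overlapped them. Its spot was marked non-uniform in 2 of 4 samples there. Of the GluN2 genes, which complete the receptor, none passed the filter in all 20 samples. One Grin2a probe was 9.06 and 9.53 on array 8, 7.34 and 7.59 on array 7 and 6.40 to 6.61 in unstimulated samples, none of which were well above background. It passed the filter only through 90/5 2 hr, the condition of arrays 7 and 8. The other Grin2a probe was 8.17 and 8.66 on array 5 and 6.65 to 7.72 on arrays 6 to 8. The latter probe had 6.81 to 6.88 in unstimulated samples and 7.41 and 7.72 on array 8, and the former had 7.10 to 7.30 at 18/1 5 hr. At 18/1 5 hr the spot of the former was marked non-uniform in 4 of 4 samples and that of the latter in 3 of 4. Grin3b, the glycine-gated relative, was well above background in 0 of 4 samples of 90/5 2 hr, where it ranged from 6.62 to 6.86, against 7.19 to 7.40 in unstimulated samples.

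Of the metabotropic receptors, Grm8, an inhibitory receptor of presynaptic terminals, was 11.03, 10.81, 10.97 and 10.55 in unstimulated samples and 11.15, 11.18, 11.18 and 11.04 at 18/1 2 hr. At 18/1 5 hr it was 9.15 and 8.70 on array 5 and 10.55 and 10.79 on array 6. The second of these arrays overlapped the unstimulated samples. The difference was -1.04 ± 0.40 (adjusted p = 0.0369 by limma) from unstimulated and -1.34 ± 0.40 (adjusted p = 0.00956 by limma) from 18/1 2 hr. The latter was -0.47 (adjusted p = 0.232 by limma) without array 5. Grm5, coupled to calcium release, was 8.71 to 9.17 in unstimulated samples and 8.02 to 9.37 at 18/1 5 hr, and was called in no comparison.

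Grm2 and Grm7 passed the filter in 1 condition but not in all 20 samples. Grm2, like Grm8 inhibitory, was 9.49, 9.95, 9.33 and 9.83 in unstimulated samples, 8.33, 8.56, 8.13 and 8.13 at 18/1 5 hr, 8.59, 8.72, 8.38 and 8.46 at 90/5 2 hr and 9.76, 9.86, 10.33 and 10.05 at 90/5 5 hr. Both conditions of slide 2 lay below all others, and the spot was marked non-uniform in 3 of 4 samples of 18/1 5 hr and 1 of 4 of 90/5 2 hr. The differences from unstimulated were -1.36 ± 0.27 (adjusted p = 0.000832 by limma) at 18/1 5 hr and -1.11 ± 0.27 (adjusted p = 0.0203 by limma) at 90/5 2 hr, where 5.06% of genes were called in that fit. Grm7 was 9.89 to 10.14 in unstimulated samples, 12.02 and 12.35 on array 5 and 10.66 and 10.71 on array 6. Its difference at 18/1 5 hr was 1.45 ± 0.49 (adjusted p = 0.0268 by limma).

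Grm4 had a probe, A_55_P2010376, that was 8.13, 8.09, 8.24 and 8.22 at 90/5 5 hr and at most 7.41 in every other sample. It was singled out after its values were seen. The difference from unstimulated was 0.83 ± 0.19 (adjusted p = 0.165 by limma over every probe that met the filter in 1 condition), so it was not called. It passed the filter through that condition. The other Grm4 probe was 7.29 to 7.55 at 90/5 5 hr and 6.97 to 7.38 in unstimulated samples.

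**Figure D4:**
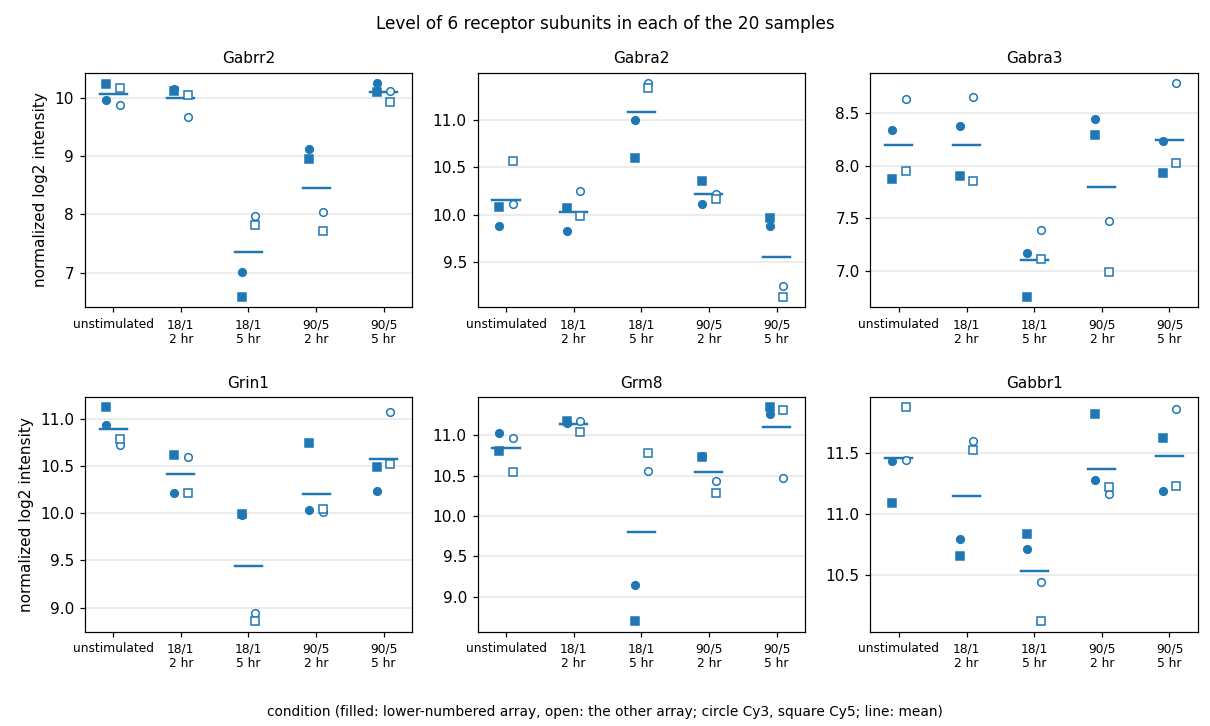
Normalized log2 intensity of 6 tested subunits in each of the 20 samples, by condition, with a scale of its own in each panel; circles are Cy3 and squares Cy5, filled symbols the lower-numbered array and open ones the other, and lines are means of 4 samples. Gabrr2 is near 10 in unstimulated, 18/1 2 hr and 90/5 5 hr samples and lower in both conditions of slide 2, and at 18/1 5 hr the arrays of Grm8 and Grin1 lie apart.

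Stimulation with 90/5 was then set against unstimulated neurons. At 2 hr, 1 of 16 was called, Gabrr2, where 722 of 10355 genes (6.97%) were called. The median difference of the subunits was -0.34, beside -0.08 over all genes. At 5 hr, 0 of 16 subunits were called, against 7 genes (0.0676%). The methods' t-test called 0 at 90/5 5 hr, and 1 of 16 subunits had an unadjusted limma p under 0.05. This was Gabra2, with 9.88 and 9.96 on array 9 and 9.25 and 9.14 on array 10, a difference of -0.60 ± 0.28 (adjusted p = 1.00 by limma). The second Gabra2 probe had 0.18 ± 0.35 there. Array 9 overlapped the unstimulated samples and array 10 did not.

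The patterns were then compared at each time. At 2 hr, Gabrr2 was the 1 subunit called between 90/5 and 18/1, where 514 genes (4.96%) were called, with -1.54 ± 0.34 (adjusted p = 0.0104 by limma). It was not called without array 3, 4 or 8 (adjusted p = 0.228, 0.0815 and 0.282 by limma). At 5 hr, 6 of 16 subunits were called, 5 higher and 1 lower at 90/5, where 4701 genes (45.4%) were called, 3065 (29.6%) higher and 1636 (15.8%) lower. Gabrr2 was higher by 2.75 ± 0.34 (adjusted p = 5.07e-06 by limma) and Gabra3 by 1.14 ± 0.29 (adjusted p = 0.00301 by limma), both without overlap. Gabra2 was lower, with -1.52 ± 0.28 (adjusted p = 0.000217 by limma), without overlap for the first probe. Over 12 other settings this difference ranged from -1.52 to -0.60, and in 1 of them it was no longer called. The second Gabra2 probe had 0.40 ± 0.35. Gabbr1, Grin1 and Grm8 were the other 3 called, all higher at 90/5. The median difference of the 16 was 0.60, beside 0.23 over all genes. These values share the 18/1 5 hr samples with those above.

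The times were compared within each pattern. From 2 to 5 hr of 18/1, 6 of 16 subunits were called, 1 higher (Gabra2, 1.04 ± 0.28, adjusted p = 0.00508 by limma) and 5 lower (Gabra3, Gabrr2, Grin1, Grin3a and Grm8), where 4556 genes (44%) were called, 15.3% of those tested being higher and 28.7% lower. Gabrr2 differed by -2.65 ± 0.34 (adjusted p = 1.07e-05 by limma). Gabra2 lost its call in 1 of 12 other settings (differences of 0.26 to 1.06) and in 1 of 12 leave-out fits (0.76 to 1.32). The second Gabra2 probe went the other way, with means of 9.63 at 2 hr and 9.37 at 5 hr. The count of called subunits was 2 without array 3 and 3 without array 4. The share of all genes called in these reduced fits is not set beside it. From 2 to 5 hr of 90/5, Gabrr2 alone was called of the 16, higher by 1.64 ± 0.34 (adjusted p = 0.00394 by limma), where 928 genes (8.96%) were called. It was not called without array 8 (1.06, adjusted p = 0.122 by limma) or array 10 (1.71, adjusted p = 0.0507 by limma), and without array 7 the count was 2, with Gabra3 added.

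One comparison lay within slide 2, that of 90/5 2 hr with 18/1 5 hr, in which both pattern and time differ. It called 2 of 16 subunits, where 1339 genes (12.9%) were called. Gabrr2 was higher at 90/5 2 hr by 1.11 ± 0.34 (adjusted p = 0.0385 by limma), and array 8, with 8.04 and 7.72, overlapped array 6 of the other condition. Gabra2 was lower, with -0.86 ± 0.28 (adjusted p = 0.0456 by limma), without overlap. Fitted on the 8 samples of these conditions alone, no gene was called, with adjusted p-values of 0.355 for Gabrr2 and 0.398 for Gabra2 by limma and 6 subunits under an unadjusted p of 0.05 in the fit on all samples. The count ranged from 0 to 7 as samples or arrays were left out: it was 0 without array 5 Cy3, array 7 Cy3, array 7 Cy5 or array 7, 1 without array 5 Cy5, array 6 Cy3 or array 6 Cy5, 7 without array 6 and 4 without array 8. The share of all genes in these reduced fits, or under that unadjusted p, is not set beside these counts. They are not read as results about the subunits.

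The difference between the patterns was tested for a change between 2 and 5 hr. The interaction was called for 5 of 16 subunits, where 4636 genes (44.8%) were called. It was 4.29 ± 0.49 (adjusted p = 1.04e-06 by limma) for Gabrr2, 1.89 ± 0.56 (adjusted p = 0.00921) for Grm8, 1.54 ± 0.41 (adjusted p = 0.00423) for Gabra3, 1.34 ± 0.48 (adjusted p = 0.0266) for Grin1 and -1.70 ± 0.39 (adjusted p = 0.00164) for Gabra2. With every probe of the same filter tested, the second Gabra2 probe had the opposite sign, 1.18 ± 0.45 (adjusted p = 0.0393 by limma). In the same fit a Gabbr1 probe, A_55_P2082135, was called, with 2.16 ± 0.41 (adjusted p = 0.000288 by limma), while the Gabbr1 probe counted above had 0.72 ± 0.48 (adjusted p = 0.227 by limma). Each of these 4 conditions entered with 2 arrays, and 2 of them lay on slide 2.

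The differences moved with the base content of the probes. Across the 19 subunit probes that passed the filter, Spearman's rho between the percentage of G and C bases and the difference from unstimulated was -0.60 at 18/1 5 hr, where it was -0.48 over all 10355 genes. The corresponding values were -0.41 and -0.40 at 90/5 2 hr, 0.04 and 0.20 at 90/5 5 hr, and -0.69 and -0.04 at 18/1 2 hr. These are correlations across probes of the same arrays, which are not independent replicates, and some subunits have more than 1 probe. With each sample's trend on base content removed, 3 subunits were called at 18/1 5 hr, all lower (Gabra3, Gabrr2 and Grin3a), and Gabra2 was 0.62 higher (adjusted p = 0.0584 by limma). The share of all genes called in that fit is not set beside this count, which is not read as a result about the subunits. Gabrr2, at 40.0%, lay below the other probes of its base content, at -2.71 where Gria3 and Gria4 with 40.0% had -0.14 and 0.00359.

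**Figure D5:**
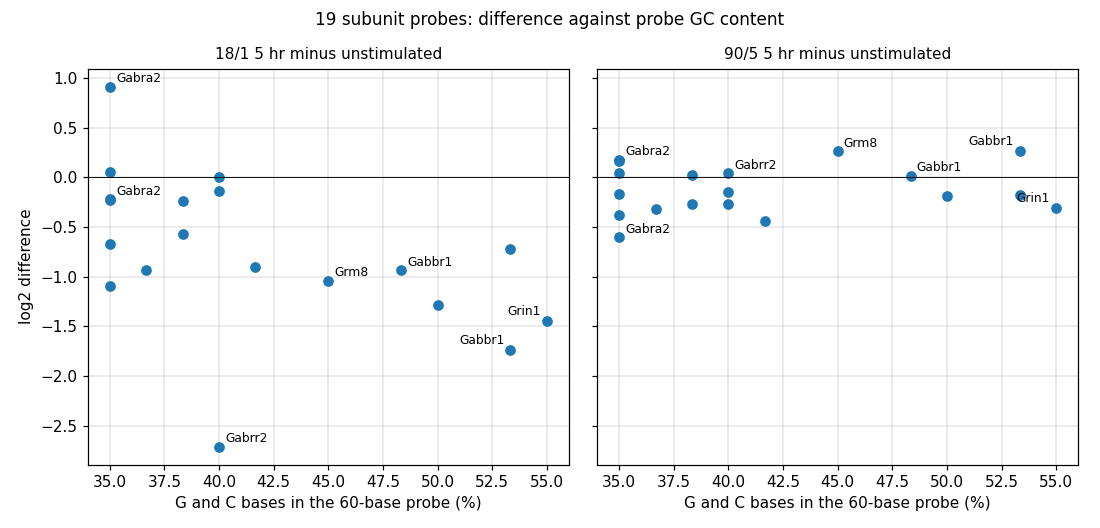
Log2 difference from unstimulated neurons against the percentage of G and C bases in the probe, for the 19 subunit probes of the main filter, at 18/1 5 hr (left) and 90/5 5 hr (right); each point is a probe, and probes of 5 genes are labelled. At 18/1 5 hr the probes of 35.0% range from -1.09 (Gabra3) to 0.91 (Gabra2), Grin1 at 55.0% has -1.45 and a Gabbr1 probe at 53.3% has -1.74, while Gabrr2 lies apart at -2.71.

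Genes that serve these receptors were counted on 7 lists of 87 genes, of which 41 could be tested. Of the 41, 6 were called higher and 8 lower after 5 hr of 18/1. Over all genes tested these shares were 15% and 29.5%. After 2 hr of 90/5 the counts were 1 higher and 0 lower, beside 6.97% of all genes in either direction, and in the other 2 stimulated conditions 0 were called. Their median difference at 18/1 5 hr was -0.00783, beside -0.23 over all genes. On the list of GABA receptor anchoring and trafficking, 12 genes could be tested, and 18/1 for 5 hr gave 2 calls higher and 4 lower. Nsf, an ATPase of membrane fusion, was higher by 1.91 ± 0.43 (adjusted p = 0.00143 by limma), and Plcl1, a binding partner of GABA-A receptors and their associated protein, differed by -1.20 ± 0.26 (adjusted p = 0.000940 by limma).

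Abat, which breaks GABA down, was the 1 of 3 genes of GABA synthesis, uptake and breakdown that was called, 0.99 ± 0.35 higher (adjusted p = 0.0281 by limma), with Slc6a13 at -0.28 ± 0.53. Of the chloride transporters, Clcn2, a chloride channel, differed by -0.79 (adjusted p = 0.0342 by limma) and Slc12a2, which loads DRG neurons with chloride, by 0.08 (adjusted p = 0.841 by limma). Slc17a8, a vesicular glutamate transporter, was the 1 called of 6 genes of glutamate supply, with -2.39 ± 0.46 (adjusted p = 0.000367 by limma), and Slc1a1 had -0.70 (adjusted p = 0.0641 by limma). Srr, which makes D-serine, was 1.17 ± 0.21 higher (adjusted p = 0.000197 by limma), and Slc6a9 had -0.00486 (adjusted p = 0.990 by limma). Of 4 tested auxiliary subunits of AMPA and kainate receptors 0 were called by limma at 18/1 5 hr, and Cacng5 and Cnih2 had the smallest p, with -1.01 (adjusted p = 0.0724) and -0.60 (adjusted p = 0.123). The list of scaffolds also holds genes of other kinds, such as Grina. Of its 12 tested genes 2 were higher and 2 lower. Grina had -1.78 ± 0.29 (adjusted p = 7.42e-05 by limma) and Pick1, which binds AMPA receptors, -1.77 ± 0.31 (adjusted p = 0.000151 by limma).

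At 90/5 2 hr the called gene of these lists was Nptx1, a pentraxin that clusters AMPA receptors, 1.18 ± 0.33 higher (adjusted p = 0.0315 by limma). Arc, an activity-induced regulator of AMPA receptor removal, was 1.37 ± 0.43 higher there without being called (adjusted p = 0.0547 by limma), and had 1.42 ± 0.43 at 90/5 5 hr (adjusted p = 0.717 by limma).

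Promoters from RefSeq (GRCm38.p6), 250 bases before to 50 after the start of the gene, were at hand for 32 of the 47 subunits, 39 promoters in all. The cyclic AMP response element TGACGTCA, which reads alike on both strands, was in 0 of the 39 and in 588 of all 32851 promoters of the same length (1.79%). This says only that these letters are not in those windows.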

How the data were processed

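Each array was scanned in 2 colours, each colour holding the RNA of 1 sample. The authors deposited the output of Agilent Feature Extraction (10.7.1.1 for slide 1, 10.7.3.1 for slides 2 and 3 by the file headers), from which the mean spot and median background intensities of both colours were used, with no normalization applied to them before. The deposited files also hold marks of 0 or 1, set by the authors' software, for spots that are saturated, uneven or clearly brighter than background, and these served to filter and to describe spots. The other 36 columns of a single colour in each array file were not used. Samples were grouped by their labels. For 18/1 5 hr and 90/5 2 hr the labels do not tell which colour held which replicate, so samples are named by array and colour.

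Intensities were corrected by normexp (offset 50), by loess within arrays with control spots at weight 0, and by Aquantile between arrays in limma 3.58.1 (R 4.3.3). Spots of a probe were averaged, and 1 probe per gene name (the highest mean) was fitted with condition and colour as terms and the array as a random block (correlation 0.529). A second fit took spots that met the limits in all samples of at least 1 condition (18744 genes). Full statistics are given in each comparison for the called subunits with the 2 largest rises and the 2 largest falls among those without overlap, for every subunit called within a slide and, where none was called, for that of the smallest p. On the gene lists the 2 genes of smallest p are named. A few members are counted but not reported here by name. Deviations from the condition means of same-numbered samples correlated at 0.41 to 0.72 in 4 of 4 pairs of unstimulated and 18/1 2 hr samples (0.17 to 0.52 with colour removed), so these were taken as paired by the data. The labels do not say what a number marks. The statistics were tested on simulated data. The number of arrays limits the precision. Names and promoters were matched through RefSeq tables of GRCm38.p6, while probe positions are those of mm9 in the files. Alternatives changed the background correction, normalization, filter, probe choice, block, samples fitted, base content and test. The members and the gene lists were chosen with earlier results of these data known.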

Additional observations from a re-analysis of the deposited data

Results flagged for a closer look

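In 3 of the 70 sets of 4 samples examined (14 subunits in 5 conditions), 1 sample lay far from the other 3, and chance gives about 1 in 20 such sets, or 3.5. At 90/5 5 hr the sample of array 10 Cy3 was the distant one for Gabrg1 (7.62, nearest 8.57) and Grm8 (10.48, nearest 11.27). At 90/5 2 hr array 7 Cy5 was distant for Grin1 (10.75, nearest 10.05). The same array 10 Cy3 lay over 1 log2 unit from the mean of its 3 companions for 5 of 16 subunits and for 11.2% of all genes tested. For array 5 Cy5 of 18/1 5 hr these were 4 subunits and 13.4% of genes, with a median distance of 0.758 over the subunits against 0.691 for array 10 Cy3.

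The difference between patterns changed with time for 5 subunits by the limma interaction test over all genes, with Gabrr2 at 4.29 (adjusted p = 1.04e-06), Grm8 at 1.89 (adjusted p = 0.00921), Gabra3 at 1.54 (adjusted p = 0.00423), Grin1 at 1.34 (adjusted p = 0.0266) and Gabra2 at -1.70 (adjusted p = 0.00164). The second Gabra2 probe, A_55_P2177351, had the opposite sign when every probe was tested, 1.18 (adjusted p = 0.0393), and the Gabbr1 probe A_55_P2082135 was called, with 2.16 (adjusted p = 0.000288), where A_51_P464900 had 0.72 (adjusted p = 0.227). The conditions 18/1 5 hr and 90/5 2 hr, which enter it with the same sign, were on slide 2, so that slide and interaction cannot be told apart.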

How the results depend on the processing

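The number of called subunits was 0 in every alternative run for 18/1 2 hr and for 90/5 5 hr against unstimulated, leaving out samples or arrays included. Against unstimulated, 18/1 5 hr called 3 subunits in place of 8 with the base content trend removed, 7 to 12 in the other settings (10 with the filter in 1 condition, beside 36.8% of all genes, and 12 with no filter, beside 25.7%), and 3 to 7 as samples or arrays were left out, with 3 without array 1 or array 2 and 5 without unstimulated replicate 1. For 90/5 2 hr against unstimulated the count of 1 became 2 with the filter met in 1 condition, 0 with no filter, 7 by the methods' t-test and 0 by that test with Benjamini-Hochberg adjustment, and 0 to 2 on leaving out samples or arrays (0 without array 1, 2 or 8, and 2 without array 7). For 90/5 2 hr against 18/1 2 hr the count of 1 became 0 with no filter, 3 by the methods' t-test, 0 with its adjustment, and 0 to 2 on leaving out (0 without array 3, 4 or 8, and 2 without array 7). For 90/5 5 hr against 18/1 5 hr the count of 6 became 11 with median centring, 12 with the filter in 1 condition, 12 with no filter, 2 by the adjusted t-test, and 4 to 7 on leaving out. For 18/1 5 hr against 2 hr the 6 became 11 with median centring, 13 with the filter in 1 condition, 12 with no filter, 3 by the adjusted t-test, and 2 to 7 on leaving out (2 without array 3 and 3 without array 4). For 90/5 5 hr against 2 hr the 1 became 4 with the filter in 1 condition, 2 with no filter, 3 with no array block, 3 by the methods' t-test, 0 with its adjustment, and 0 to 2 on leaving out (0 without array 8 or 10, and 2 without array 7). For 90/5 2 hr against 18/1 5 hr the 2 became 1 without background subtraction, 9 with median centring, 5 with no filter, 1 without saturated probes, 6 with no array block, 0 on these conditions alone, 0 without the base content trend, 0 by the adjusted t-test, and 0 to 7 on leaving out (7 without array 6, 4 without array 8). The interaction was called for 13 subunits with no filter and for 4 to 7 on leaving out, in place of 5. The counts are of 16 subunits, or of 37 with the filter in 1 condition and 47 with no filter. The share of all genes called also moved. For 90/5 5 hr against 18/1 5 hr it was 57.5% with median centring, 38.2% with the filter in 1 condition and 27.2% with no filter, and for 18/1 5 hr against 2 hr 52.9%, 36.3% and 25.4%. For 90/5 2 hr against 18/1 5 hr it was 46.9% with median centring and 6.24% with no filter, and for the interaction with no filter 26.8%. With the filter in 1 condition and no filter it was 5.06% and 1.63% for 90/5 2 hr against unstimulated and 7.94% and 3.09% for 90/5 5 hr against 2 hr. The cause was not tested, apart from more subunits being tested with the wider filters. For the remaining settings, the t-tests included, and for the leave-out fits, the share of all genes called is not set beside the counts here. Those counts are not read as results about the subunits. Over the 16 pairs of a named subunit and a comparison, 334 of 389 alternative values kept their direction and side of the threshold, 55 kept the direction but were no longer called, and 0 reversed. These follow 1 probe per gene, which was that of smallest p where every probe was tested. The second Gabra2 probe, which they leave out, had the opposite sign in 4 of its 5 pairs, with -0.22 at 18/1 5 hr and 0.18 at 90/5 5 hr against unstimulated, 0.40 for 90/5 5 hr against 18/1 5 hr and -0.26 for 18/1 5 hr against 2 hr. In the fifth, 90/5 2 hr against 18/1 5 hr, it had -0.52 beside -0.86, the same sign. Signal over background limits the dim subunits, 10 of which met neither filter.

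The replicate block changed no call of a subunit. It was run for unstimulated, 18/1 2 hr and 90/5 5 hr samples, with 0 subunits called at 18/1 2 hr and 0 at 90/5 5 hr against unstimulated, and Grin1 and Gabra2 kept -0.48 and -0.60. Over all genes it called 359 (3.47%) in place of 7 at 90/5 5 hr. A replicate block on unstimulated and 18/1 2 hr samples alone, chosen after seeing the data, also called 0. The samples of 90/5 5 hr share only a number with the others. There 5 of 8 same-numbered pairs correlated over 0.1, from -0.05 to 0.65 (-0.54 to 0.59 with the colour, which goes with odd and even numbers, removed).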

Other observations

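Gabrq, the theta subunit, was 8.37 and 8.79 on array 6 and at most 7.23 in all other samples. Its other array at 18/1 5 hr gave 6.48 and 6.34. Another Grm5 probe, A_55_P2316783, was 8.53 and 8.88 on array 5, 6.93 and 6.93 on array 6, and 7.40 to 7.60 in unstimulated samples. The 2 arrays of 18/1 5 hr thus lay on either side of the unstimulated samples for that probe. In the limma fits with the filter met in 1 condition neither was called at 18/1 5 hr against unstimulated, with adjusted p = 0.0624 for Gabrq and 0.33 ± 0.36 (adjusted p = 0.494) for the Grm5 probe, every probe being tested. Gabrq was well above background in 0 of 4 unstimulated and 2 of 4 samples of 18/1 5 hr. Spots of 18/1 5 hr were marked non-uniform in 2 of 4 samples for Gabrq and 3 of 4 for the Grm5 probe. Both were chosen after their values were seen.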
